A study of Mus musculus with 6 samples.

Results

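The genes described here code for the enzymes with which a hepatocyte, the main metabolic cell of the liver, builds fatty acids and joins them to glycerol, together with Srebf1, a transcription factor that drives many of them. They were taken as a hand-written list of 39 gene symbols chosen by function, and all 39 were found among the 19938 genes that the arrays measured with a probe set naming a single symbol. The list falls into 7 genes of lipogenesis, 11 of fatty acid elongation and desaturation, 15 of esterification and 6 of phospholipid synthesis. Expression was measured in primary hepatocytes transfected overnight with 1 nmol of siRNA against RetSat (siRetSat, 3 transfections) or with 1 nmol of control siRNA (siControl, 3 transfections). RetSat, retinol saturase, is an oxidoreductase of vitamin A metabolism. All cells came from wild-type C57BL/6J liver and were seeded in medium with 25 mM glucose, and RNA was harvested 48 h after fresh medium had replaced the transfection mix. The series' design text gives 1 male mouse aged 10 weeks as the source of the cells, whereas the growth protocol speaks of mice, so the number of animals is not settled. No label ties a transfection to an animal, and the p-values measure only the spread between these transfections, which may be technical. No second siRNA against RetSat was analysed here, and what else this siRNA may do cannot be told apart from the loss of RetSat. In RNA from a whole culture, fewer cells of a type and less RNA per cell also cannot be told apart.

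In lipogenesis, citrate that leaves the mitochondria is split by Acly, the resulting acetyl-CoA is carboxylated by Acaca or Acacb, and Fasn assembles a saturated fatty acid. Enzymes of the Elovl family then lengthen the chain in the endoplasmic reticulum, while Scd and Fads enzymes introduce unsaturated bonds. Esterification adds fatty acids to glycerol phosphate, removes the phosphate and adds a last fatty acid to give triglyceride, the storage fat of the liver, and the intermediate diacylglycerol is shared with the synthesis of phospholipids. In hepatocytes, high glucose and insulin are known to drive much of this pathway, through ChREBP (encoded by Mlxipl) and SREBP-1c (encoded by Srebf1).

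The targeted transcript was low in every siRetSat culture. Retsat had log2 values of 4.62, 4.83 and 4.81 in siRetSat, against 6.80, 7.04 and 7.01 in siControl. Its mean was 4.75 ± 0.12 in siRetSat and 6.95 ± 0.13 in siControl (SD, n = 3 each), so that 21.8% of the control signal remained. The log2 fold change was -2.20 (standard error 0.105, adjusted p = 0.000112 by limma, a linear model with variances moderated across genes).

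Most genes of fatty acid and glycerolipid synthesis did not pass the test, and those that did were lower in siRetSat. Fads2, the desaturase that starts the synthesis of highly unsaturated fatty acids, fell to 59.5% of the control signal, and Lpin2, a phosphatidate phosphatase, fell to 65.5%. At an adjusted p under 0.05 over all genes, these 2 of the 39 members (5.13%) were called, both lower and none higher, against 3.56% of all genes called in either direction. Of all genes, 1.66% were called lower and 1.91% higher at the adjusted threshold. This comparison did not use the replicate number, and a fit with that number as a block called 6 members, all lower. The share of all genes called in the block fit is not given here. At an unadjusted p under 0.05, 8 members passed (20.5%), 6 lower and 2 higher, against 14.5% of all genes, 7.52% lower and 6.98% higher. At the study's own cutoffs, an unadjusted p under 0.05 with a change of at least 0.32 on the log2 scale, 5 members were lower (Fads2, Lpin2, Agpat1, Dgat2 and Elovl6, 12.8%) and only Acacb was higher (2.56%). Over all genes these cutoffs were passed by 9.05%, of which lower genes made up 4.58% of all genes and higher genes 4.47%. The 3 siRetSat values lay wholly below the 3 siControl values for 9 members (23.1%), against 10.1% of all genes, and wholly above them for 4 members, against 9.33% of all genes. The other 26 members had overlapping groups. The median log2 fold change over the members was -0.07, with a range from -0.75 to 0.33, and 26 members had a value under 0 and 13 above it, whereas the median over all genes was 0.00333. The 95% confidence interval of the fold change lay within this cutoff in both directions for 15 members. For the other members without a call, the interval reached past the cutoff in at least one direction. Elovl3 and Mogat1 were dim, with group means under 4.33, the 40th percentile of all genes, and 37 members were above it.

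**Figure D1:**
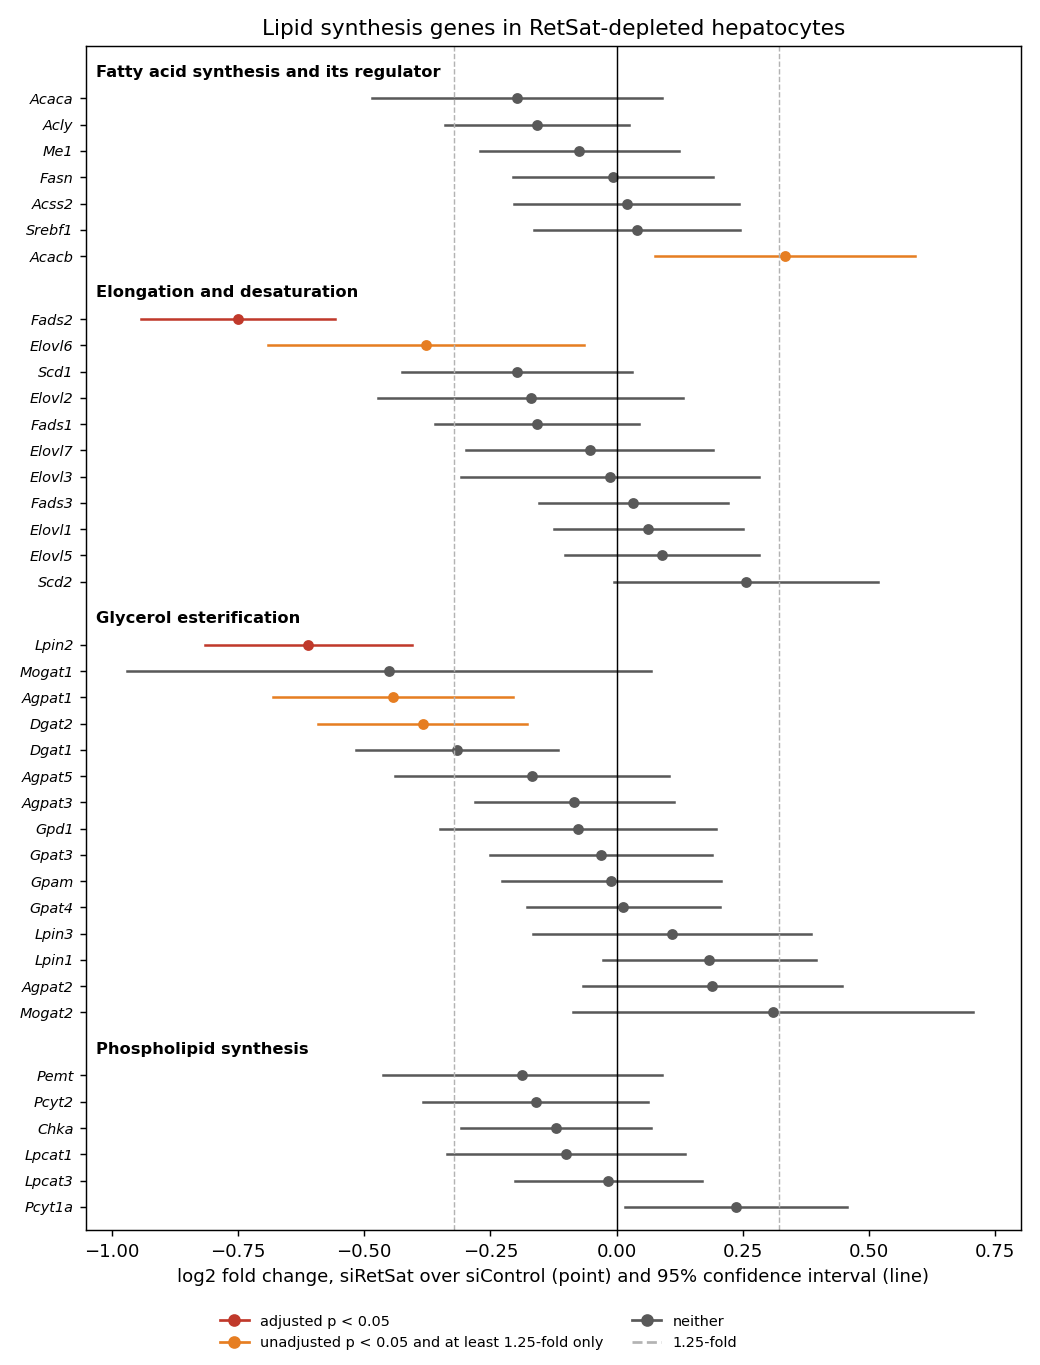
Log2 fold change (siRetSat minus siControl) of each of the 39 members, grouped by pathway step, with bars for the 95% confidence interval from limma over 3 arrays per group and dotted lines at the study's fold cutoff (0.32). Fads2 at -0.75 and Lpin2 at -0.61 lie farthest below 0 among the members and are the ones called at an adjusted p under 0.05.

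In lipogenesis none of the 7 genes was called by limma, and Acacb alone passed at an unadjusted p under 0.05. Acly, which makes cytosolic acetyl-CoA, had log2 values of 8.70, 8.70 and 8.74 in siRetSat and 8.84, 8.87 and 8.90 in siControl. All siRetSat values were below all siControl values, but the gap was small, namely -0.16 on the log2 scale (standard error 0.0794, adjusted p = 0.443 by limma). Fasn, the fatty acid synthase, had 6.69, 6.58 and 6.74 in siRetSat and 6.72, 6.65 and 6.66 in siControl. These values overlapped fully, and the log2 fold change was -0.01 with a 95% confidence interval from -0.20 to 0.19. Srebf1 also overlapped, at 7.05, 7.13 and 7.04 in siRetSat and 6.99, 7.14 and 6.97 in siControl, with a log2 fold change of 0.04 (interval -0.16 to 0.24). For Fasn and Srebf1 the interval thus stays within the study's fold cutoff. The same holds for Me1, the malic enzyme that supplies NADPH (log2 fold change -0.07), and for Acss2, which makes acetyl-CoA from acetate (0.02).

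The acetyl-CoA carboxylases lay on opposite sides of 0, neither of them called. Acacb, whose product malonyl-CoA at the mitochondrion restrains fatty acid oxidation, had log2 values of 6.16, 6.18 and 6.11 in siRetSat, against 5.60, 5.98 and 5.87 in siControl. Every siRetSat value was above every siControl value, at 126% of the control signal, and the siControl values were the more scattered. On the log2 scale this is a difference of 0.33 (standard error 0.112, adjusted p = 0.195 by limma). Without siControl 1, the lowest of the arrays for this gene, it was 0.225 and missed the study's cutoffs, which were also missed without siRetSat 2, with array weights and with each array centred on its median. Acaca, which provides malonyl-CoA for fatty acid synthesis, had 6.42, 6.80 and 6.84 in siRetSat and 6.81, 6.89 and 6.95 in siControl. The array siRetSat 1 lay well below the rest, and the log2 fold change was -0.20 (adjusted p = 0.594 by limma). Without that array it was -0.06, and without both arrays numbered 1 it was -0.10. A dimmer probe set of Acaca gave -0.30. The difference between Acacb and Acaca within an array was 0.53 higher in siRetSat (p = 0.1 by a two-sided exact permutation test, which cannot give a smaller p for 3 against 3). This is among 9 comparisons within enzyme families that were chosen after the values were seen, and after adjustment over the 9 no p was under 0.113.

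Among the enzymes of elongation and desaturation, Fads2 stood out by the size of its difference. Fads2 had log2 values of 9.95, 10.03 and 9.96 in siRetSat, against 10.73, 10.79 and 10.67 in siControl. The groups were far apart compared with their spread, at 9.98 ± 0.04 in siRetSat and 10.73 ± 0.06 in siControl (SD, n = 3 each). The log2 fold change was -0.75 (standard error 0.0834, 95% confidence interval -0.94 to -0.56, adjusted p = 0.00336 by limma). The call held in each of the 6 fits that left out a single array, with adjusted p between 0.00796 and 0.0304. It was lost without both arrays numbered 2 (log2 fold change -0.75, adjusted p = 0.185) and without both numbered 3 (-0.77, adjusted p = 0.0649).

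The neighbouring desaturases of the same family, which lie with Fads2 in a cluster on chromosome 19, showed smaller differences. Fads1, which acts after Fads2 in the same route, had 9.40, 9.57 and 9.55 in siRetSat and 9.62, 9.69 and 9.68 in siControl. The groups did not overlap, but the log2 fold change was only -0.16 (adjusted p = 0.509 by limma). Fads3, a family member that acts on the sphingoid base of ceramides, had 9.26, 9.31 and 9.23 in siRetSat and 9.28, 9.22 and 9.20 in siControl. Its log2 fold change of 0.03 had an interval from -0.15 to 0.22, within the fold cutoff. Within each array, the difference between Fads2 and Fads3 was 0.78 lower in siRetSat than in siControl on the log2 scale. That between Fads2 and Fads1 was 0.59 lower (two-sided exact permutation test, p = 0.1 for each, the smallest possible). These comparisons, like those within families below, are among the 9 chosen after the values were seen. After adjustment over the 9, none of these exact tests gave a p under 0.113.

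Because Fads2 and Fads3 lie close together and Fads2 alone of them was called, their promoters are shown from 250 bases before to 50 bases after the start of transcription, from RefSeq on GRCm38.p6, 5′ to 3′ on the strand of the gene. Capitals mark a CCAAT box (letters CCAAT on either strand), a common site of the factor NF-Y. An E-box (CACGTG), which USF factors bind and pairs of which serve ChREBP, was also searched on both strands. So was a sterol regulatory element (TCACNCCAC, N for any base), a site of SREBP, and neither motif was found in either window. Only these letters within these windows were searched. Their absence therefore does not show that a gene lacks sites for these factors. Fads2 lies at chr19:10101454-10101753 on the minus strand and Fads3 at chr19:10041298-10041597 on the plus strand.
Fads2: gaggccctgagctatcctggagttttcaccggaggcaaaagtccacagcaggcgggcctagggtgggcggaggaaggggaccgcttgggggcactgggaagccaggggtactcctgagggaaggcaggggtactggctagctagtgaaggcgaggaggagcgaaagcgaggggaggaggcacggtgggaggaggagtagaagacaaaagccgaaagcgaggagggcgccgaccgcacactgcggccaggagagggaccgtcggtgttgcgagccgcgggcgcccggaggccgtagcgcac
Fads3: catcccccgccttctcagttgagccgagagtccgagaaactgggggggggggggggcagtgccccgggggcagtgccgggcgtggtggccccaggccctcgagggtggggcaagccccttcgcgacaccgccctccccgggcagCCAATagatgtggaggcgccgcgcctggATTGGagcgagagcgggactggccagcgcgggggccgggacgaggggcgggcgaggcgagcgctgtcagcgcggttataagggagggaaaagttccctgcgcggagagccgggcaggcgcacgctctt
The Fads2 window held none of the 3 motifs, and the Fads3 window held 2 CCAAT boxes. Of the 39 members, 28 had a promoter in the RefSeq table, with 41 windows in all. A CCAAT box was in 41.5% of the members' windows and in 37.4% of all 32851 windows in the table. The sterol regulatory element was found in 2 of the members' windows, both of Pcyt1a (4.88% of their windows, against 1.24% of all windows). Counted by gene this is 1 of the 28 members, and Pcyt1a was not called.

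Scd1, the main stearoyl-CoA desaturase of liver, had log2 values of 11.00, 11.11 and 11.06 in siRetSat and 11.12, 11.40 and 11.24 in siControl. All siRetSat values were below all siControl values, though by a narrow margin, and the log2 fold change was -0.20 (interval -0.42 to 0.03, adjusted p = 0.44 by limma). Scd2, a close relative better known from brain, lay on the other side of 0 with 7.04, 7.27 and 7.37 in siRetSat and 6.85, 6.98 and 7.08 in siControl. It differed by 0.26 on the log2 scale (adjusted p = 0.355 by limma), and a single siControl value lay above the lowest siRetSat value. The difference between Scd2 and Scd1 within each array was 0.45 higher in siRetSat, with no overlap of the groups (p = 0.1, the smallest possible, by the same exact permutation test).

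Of the elongases, Elovl6, which lengthens the products of Fasn, passed the study's cutoffs with limma. Elovl6 had log2 values of 7.11, 7.48 and 7.27 in siRetSat, against 7.44, 7.84 and 7.71 in siControl. The array numbered 1 was the lowest in each group, and siRetSat 2 lay above siControl 1, so the groups overlapped. The mean was at 77.0% of the control signal (log2 fold change -0.38, standard error 0.136, adjusted p = 0.235 by limma). With the test of the study's methods, which takes each gene's variance alone, it missed these cutoffs, as it did after background subtraction, without both arrays numbered 2 or both numbered 3, and without siRetSat 1 (log2 fold change -0.29), siRetSat 3 (-0.37), siControl 2 (-0.29) or siControl 3 (-0.35). Elovl1 (log2 fold change 0.06), Elovl5 (0.09) and Elovl7 (-0.05), which act on long, very long or polyunsaturated chains, had intervals within the fold cutoff. Elovl2, an elongase of polyunsaturated chains, was at -0.17 with an interval from -0.47 to 0.13, and Elovl3, a gene of cold-stimulated brown fat that was dim here, was at -0.01.

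**Figure D2:**
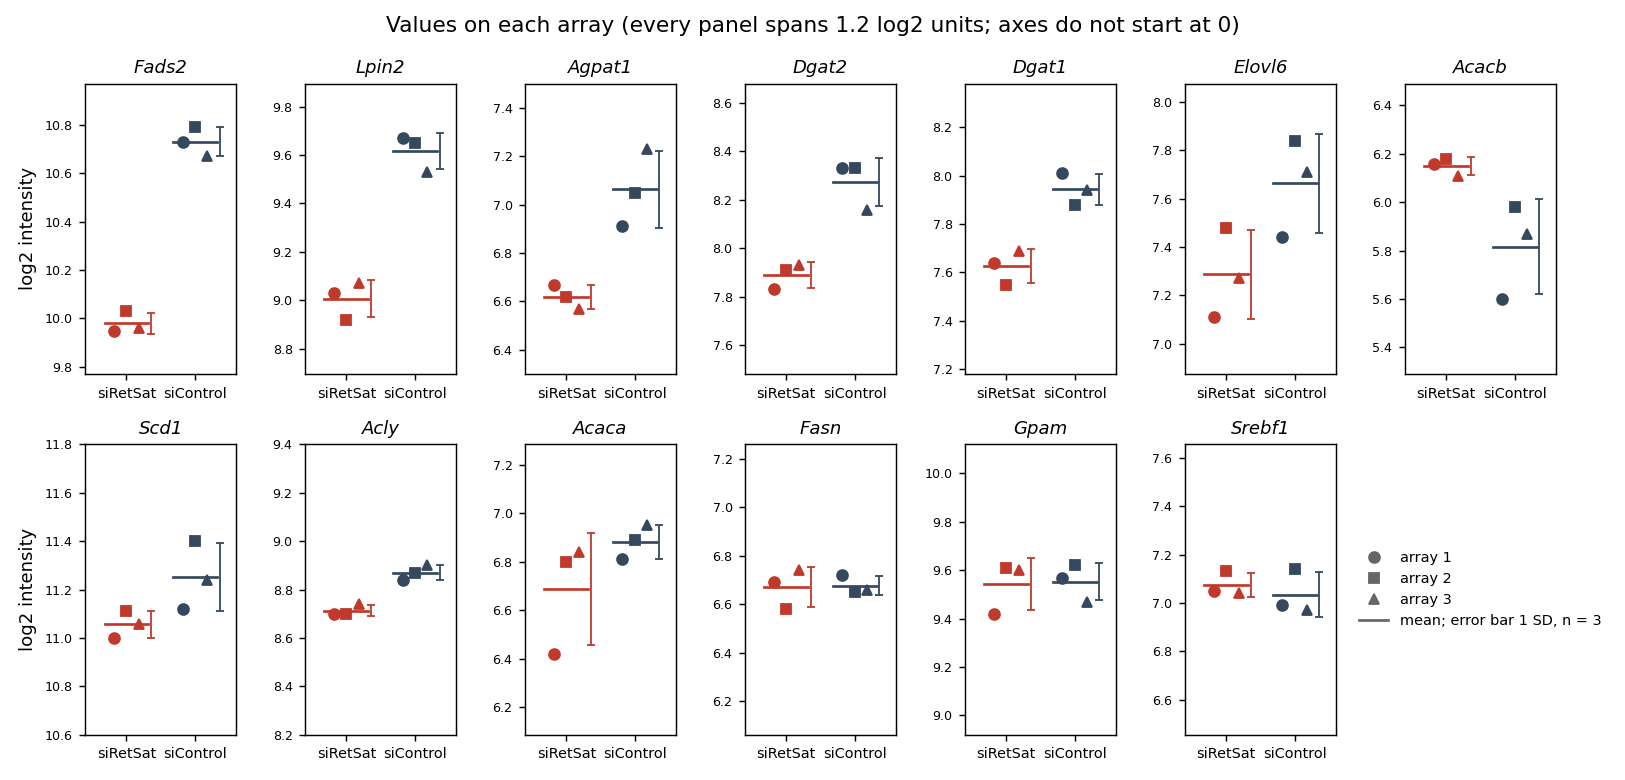
Log2 value of selected members on each array, with siRetSat to the left of siControl, points for the 3 arrays of a group and a bar for the group mean. Fads2 and Lpin2 show a wide gap between groups with little scatter, while Elovl6 overlaps between siRetSat 2 at 7.48 and siControl 1 at 7.44.

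The first step of esterification, the joining of a fatty acid to glycerol phosphate, showed little difference. Gpam, the mitochondrial acyltransferase that commits fatty acids to glycerolipids, had 9.42, 9.61 and 9.60 in siRetSat and 9.57, 9.62 and 9.47 in siControl. The values overlapped, and the log2 fold change of -0.01 had an interval from -0.23 to 0.21. Its counterparts in the endoplasmic reticulum, Gpat3 (-0.03) and Gpat4 (0.01), also had intervals within the fold cutoff. Gpd1, which makes glycerol phosphate, was at -0.08 with an interval from -0.35 to 0.20.

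At the next step, the addition of a further fatty acid, Agpat1 came close to the threshold. Agpat1 had log2 values of 6.67, 6.62 and 6.57 in siRetSat, against 6.91, 7.05 and 7.23 in siControl. Every siRetSat culture was below every siControl culture, and the siControl values were the more spread (6.62 ± 0.05 in siRetSat and 7.06 ± 0.16 in siControl, SD, n = 3 each). The log2 fold change was -0.44, or 73.5% of the control signal (standard error 0.103, adjusted p = 0.0617 by limma). It was called with a variance trend (adjusted p = 0.0371), without dim genes (0.0364), after another quantile normalization (0.0452) and with array weights (0.00346), and in none of the 6 fits without a single array, where adjusted p ranged from 0.0512 to 0.218. The array weights were 3.90 for siRetSat 2, 2.64 for siControl 2 and 0.317 to 0.863 for the other arrays. The weighted fit thus rests mostly on the arrays numbered 2. Agpat2, the isozyme whose loss causes lipodystrophy in humans, had 8.95, 8.81 and 8.86 in siRetSat and 8.47, 8.79 and 8.79 in siControl. Its groups were apart in the opposite direction by a narrow margin, and the log2 fold change was 0.19 (adjusted p = 0.54 by limma). The difference between Agpat1 and Agpat2 within an array was 0.63 lower in siRetSat, and that between Agpat1 and Agpat3 was 0.36 lower (two-sided exact permutation test, p = 0.1 for each, the smallest possible). Agpat3 had a log2 fold change of -0.08, with an interval within the fold cutoff, and Agpat5 one of -0.17 with an interval from -0.44 to 0.10.

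Lipins remove the phosphate from phosphatidic acid and so supply diacylglycerol to both triglyceride and phospholipid synthesis. Lpin2, a lipin prominent in liver, had log2 values of 9.03, 8.92 and 9.07 in siRetSat, against 9.67, 9.65 and 9.53 in siControl. The lowest siControl value lay clearly above the highest siRetSat value, and the means were 9.01 ± 0.08 in siRetSat and 9.62 ± 0.08 in siControl (SD, n = 3 each). The log2 fold change was -0.61 (standard error 0.0894, 95% confidence interval -0.82 to -0.40, adjusted p = 0.0106 by limma). The call held in 4 of the 6 fits that left out a single array. It was lost without siRetSat 2 (log2 fold change -0.57, adjusted p = 0.0685) and without siControl 2 (-0.59, adjusted p = 0.0743), as well as without both arrays numbered 2 (-0.55, adjusted p = 0.372) or both numbered 3 (-0.685, adjusted p = 0.0972). The test of the study's methods, adjusted over all genes, gave Lpin2 a p of 0.0519, also short of the threshold.

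The other lipins did not share this direction. Lpin1, which is induced by fasting and glucocorticoids in mouse liver, had 7.59, 7.61 and 7.65 in siRetSat and 7.31, 7.54 and 7.45 in siControl. Its siRetSat values were all above its siControl values, and the log2 fold change was 0.18 (adjusted p = 0.438 by limma). Lpin3 overlapped between groups and differed by 0.11 on the log2 scale (adjusted p = 0.822 by limma). Within an array, the difference between Lpin2 and Lpin1 was 0.79 lower in siRetSat and that between Lpin2 and Lpin3 was 0.72 lower, with no overlap of groups in either (two-sided exact permutation test, p = 0.1 for each, the smallest possible).

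The promoters of Lpin2 and Lpin1 are shown because these isozymes catalyse the same reaction and lay on opposite sides of 0. The windows have the same bounds and source as above, with Lpin2 at chr17:71183282-71183581 on the plus strand and Lpin1 at chr12:16610917-16611216 on the minus strand, and capitals mark the E-box CACGTG, which reads the same on both strands.
Lpin2: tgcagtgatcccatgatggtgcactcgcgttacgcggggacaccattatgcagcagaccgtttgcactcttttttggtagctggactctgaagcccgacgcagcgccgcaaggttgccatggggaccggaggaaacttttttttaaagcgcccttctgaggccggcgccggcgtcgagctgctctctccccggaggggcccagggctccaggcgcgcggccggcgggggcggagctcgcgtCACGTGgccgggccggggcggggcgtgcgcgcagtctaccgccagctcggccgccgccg
Lpin1: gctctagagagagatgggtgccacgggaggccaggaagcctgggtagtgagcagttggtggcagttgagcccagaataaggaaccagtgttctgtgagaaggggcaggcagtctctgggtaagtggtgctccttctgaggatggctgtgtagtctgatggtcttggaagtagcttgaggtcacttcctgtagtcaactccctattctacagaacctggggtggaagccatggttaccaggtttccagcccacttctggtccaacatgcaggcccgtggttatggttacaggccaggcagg
RefSeq gives 3 start windows for Lpin2 and 1 for Lpin1. The Lpin2 window shown was picked because it holds the E-box, so the printed pair is not an even comparison. A CCAAT box was also found for Lpin2, in a window that is not shown. The Lpin1 window held none of the 3 motifs in the exact letters searched. E-boxes were found in 3 members, Lpin2, Lpin3 and Elovl5, and in 7.32% of the members' windows, against 7.15% of all windows. Of these genes Lpin2 was lower in siRetSat, while Elovl5 and Lpin3 were not called.

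The last step of triglyceride synthesis is catalysed by Dgat1 and Dgat2, enzymes of unrelated sequence. Dgat2, which handles newly made fatty acids in liver, had log2 values of 7.83, 7.91 and 7.93 in siRetSat, against 8.33, 8.33 and 8.16 in siControl. The groups were apart, at 7.89 ± 0.05 in siRetSat and 8.27 ± 0.10 in siControl (SD, n = 3 each). Dgat2 was thus at 76.7% of the control signal (log2 fold change -0.38, standard error 0.09, adjusted p = 0.0631 by limma), and none of the 6 fits without a single array passed, with adjusted p between 0.0965 and 0.262. It was called with a variance trend (adjusted p = 0.0222), without dim genes (0.0335) and with array weights (0.00575). Dgat1, which re-esterifies fatty acids from outside the cell and was singled out after its values were seen, had 7.64, 7.55 and 7.69 in siRetSat, against 8.01, 7.88 and 7.94 in siControl. These groups were apart as well, by -0.32 on the log2 scale (standard error 0.0871, adjusted p = 0.109 by limma), or 80.3% of the control signal, which lay just short of the fold cutoff. The difference between Dgat2 and Dgat1 within an array overlapped between the groups and was 0.07 lower in siRetSat (two-sided exact permutation test, p = 0.6).

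Monoacylglycerol acyltransferases, which feed diacylglycerol to the same step from another side, gave no call. Mogat1 was dim and scattered in siControl, at 3.48, 3.30 and 3.47 in siRetSat and 3.32, 4.34 and 3.94 in siControl (log2 fold change -0.45, adjusted p = 0.44 by limma). Mogat2, better known from intestine, had 5.41, 5.10 and 4.66 in siRetSat and 4.76, 4.79 and 4.69 in siControl. The siRetSat values of Mogat2 spread over a wider range than its siControl values, and the log2 fold change of 0.31 had an adjusted p of 0.504 by limma.

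**Figure D3:**
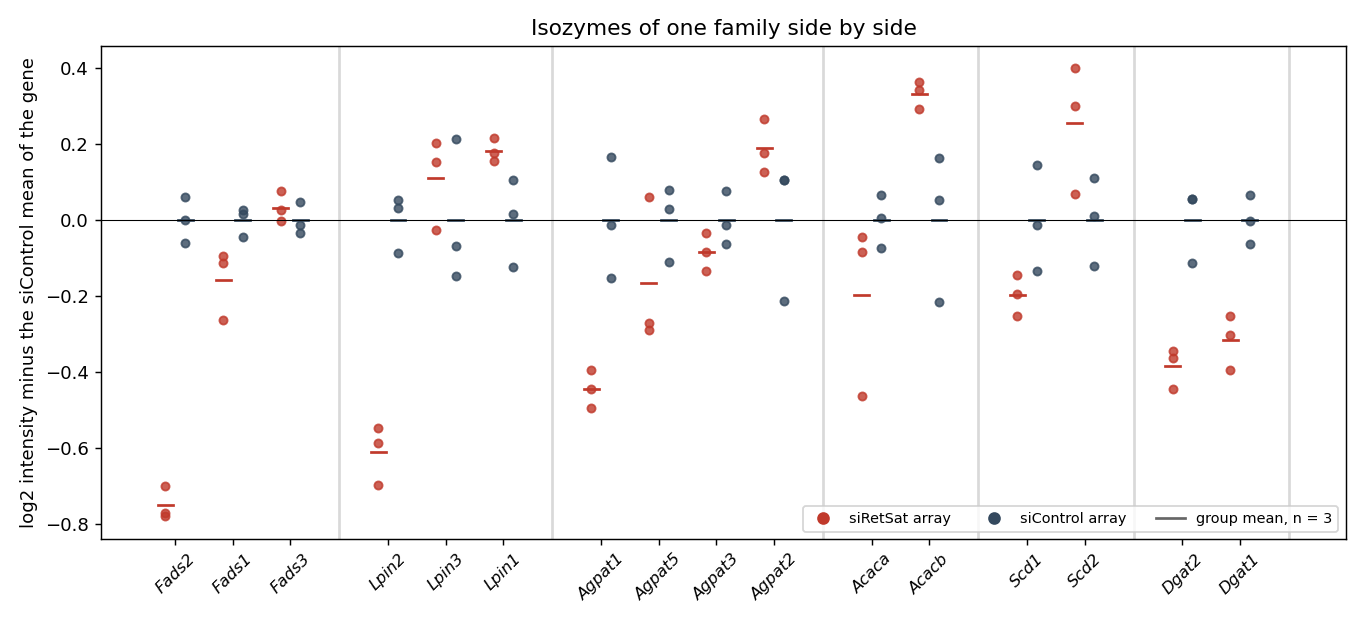
Log2 value minus the siControl mean of the same gene for members of enzyme families, with points for the 3 siRetSat arrays left of the 3 siControl arrays. Within the Fads, lipin and Agpat families, Fads2, Lpin2 and Agpat1 are each lower in all siRetSat arrays, with log2 fold changes of -0.75, -0.61 and -0.44, while Fads3, Lpin1 and Agpat2 are at 0.03, 0.18 and 0.19.

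No gene of phospholipid synthesis was called by limma or passed the study's cutoffs, and Pcyt1a alone passed at an unadjusted p under 0.05. Pcyt1a, whose product makes the activated choline of the main route to phosphatidylcholine, had log2 values of 7.96, 7.93 and 8.07 in siRetSat and 7.62, 7.84 and 7.79 in siControl. Its siRetSat values were all above its siControl values, and the log2 fold change was 0.24 (standard error 0.0955, interval 0.02 to 0.46, adjusted p = 0.299 by limma). Chka, the choline kinase ahead of Pcyt1a, had no overlap in the opposite direction, at 7.50, 7.44 and 7.49 in siRetSat and 7.65, 7.55 and 7.59 in siControl, with a log2 fold change of -0.12 (adjusted p = 0.635 by limma). Pcyt2, of the matching route to phosphatidylethanolamine, was at -0.16, and Pemt, the liver enzyme that methylates phosphatidylethanolamine to phosphatidylcholine, was at -0.19. The acyltransferases that remodel phospholipids, Lpcat1 (-0.10) and Lpcat3 (-0.02), also overlapped between groups. For Chka and Lpcat3 the interval stayed within the fold cutoff.

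Of 73 further genes listed as regulators, suppliers and partner enzymes of the pathway, 65 were measured, and 3 of them (4.62%) were called, with 1 higher and 2 lower, a share near the 3.56% of all genes called. Their median log2 fold change was 0.02, and 13 were dim. Thrsp, a lipogenic gene strongly induced by thyroid hormone and carbohydrate in rodent liver, had log2 values of 7.30, 7.12 and 7.15 in siRetSat, against 6.36, 5.94 and 6.04 in siControl. It rose by 1.08 on the log2 scale (standard error 0.124, adjusted p = 0.00378 by limma) and passed in all 6 fits without a single array. That call was lost with the test of the study's methods (adjusted p = 0.0726), without both arrays numbered 2 (adjusted p = 0.154) and without both numbered 3 (adjusted p = 0.0649), as were those of Mid1ip1 and Hacd1. Mid1ip1, a relative of Thrsp whose protein promotes polymerisation of acetyl-CoA carboxylase, went the other way, with 8.23, 8.08 and 8.03 in siRetSat and 8.73, 8.84 and 8.84 in siControl. Its log2 fold change was -0.69 (adjusted p = 0.00683 by limma), its dimmer probe set gave -0.01, and the call was lost for the mean of its probe sets (-0.35, adjusted p = 0.0793) and without siControl 2 (adjusted p = 0.0543). Mlxipl, which encodes ChREBP, had 5.56, 5.58 and 5.56 in siRetSat and 5.52, 5.50 and 5.54 in siControl, and its log2 fold change of 0.05 was not called (adjusted p = 0.899 by limma).

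Hacd1 was the other gene called lower. It encodes a dehydratase of the elongation cycle in which the Elovl enzymes act. Hacd1 had log2 values of 8.03, 7.92 and 8.01 in siRetSat, against 8.30, 8.56 and 8.62 in siControl, and its log2 fold change was -0.51 (adjusted p = 0.0425 by limma). The call held in 1 of the 6 fits without a single array, that without siControl 1, while a dimmer probe set of the gene gave -0.77. By group, 2 of 17 regulators (Thrsp and Mid1ip1), 1 of 12 partners of elongation and desaturation (Hacd1), and none of 13 suppliers of precursors and cofactors, 5 partners of esterification and 18 partners of phospholipid synthesis were called by limma. Over all genes the share called was 3.56%. At an unadjusted p under 0.05, 16 of the 65 genes passed (24.6%), 9 lower and 7 higher, against 14.5% of all genes.

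**Figure D4:**
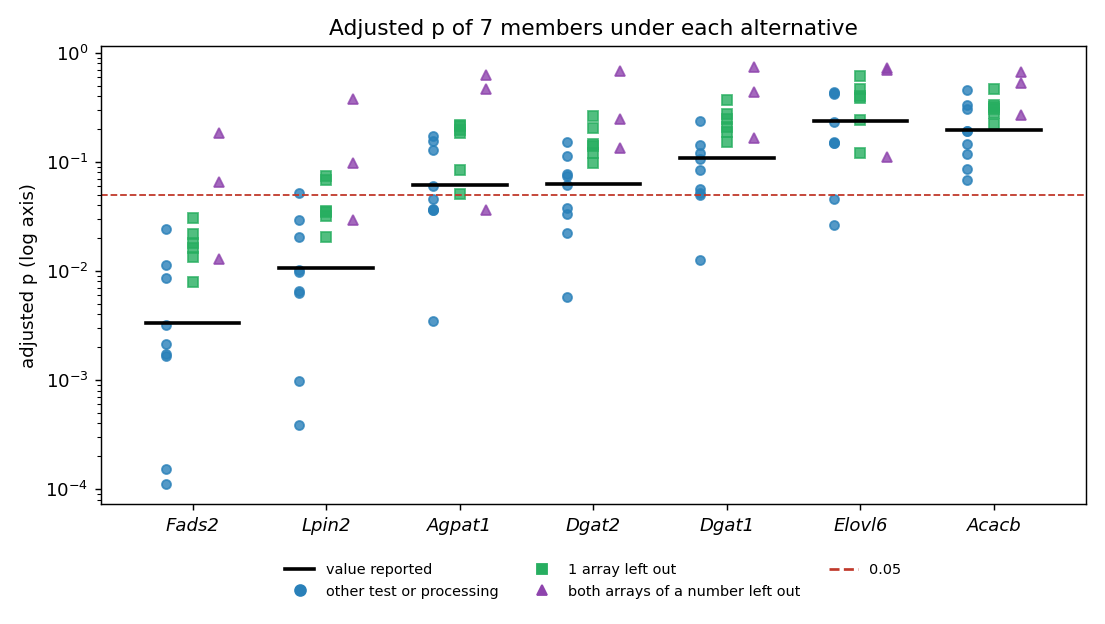
Adjusted p (log axis) of 7 members as reported (bars), with another test or processing (circles), with 1 array left out (squares) and with both arrays of a number left out (triangles), beside a dashed line at 0.05. Fads2 passes in all settings shown except without both arrays numbered 2 (0.185) or both numbered 3 (0.0649), and Lpin2 crosses the line in several of them.

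None of the 8 measured markers of the labelled cell type, the hepatocyte, was dim, and their mean log2 value was 8.96 to 9.04 in siRetSat and 9.13 to 9.37 in siControl. They differed widely in level, from Cyp2e1 (mean 5.71 in siRetSat and 5.85 in siControl) to Alb (13.05 and 12.98). Of the 8, Tat (log2 fold change -0.72) and Cps1 (-0.82) were called lower. Apob was wholly lower without a call (-0.36, adjusted p = 0.121 by limma). In all, 5 of the 8 had a log2 fold change under 0 and 3 above it. Means of the other marker lists ran from 4.91 to 5.06 in siRetSat and 4.76 to 4.85 in siControl for 11 macrophage genes, of which 6 were dim in both groups and 1 was called higher. They ran from 4.62 to 5.15 in siRetSat and 4.58 to 4.85 in siControl for 8 stellate cell and fibroblast genes, and from 5.02 to 5.23 in siRetSat and 4.97 to 5.14 in siControl for 6 endothelial genes, with no call in either list. For 4 bile duct genes the means were 5.88 to 6.02 in siRetSat and 5.83 to 5.91 in siControl, with 1 called higher, and for 5 adipocyte genes 4.02 to 4.17 in siRetSat and 3.91 to 4.02 in siControl, with none called. The part of these differences in the values of Fads2, Lpin2 and the other members was not tested. Along the first principal component of the deviations from the group means (61.5% of the variance), both arrays numbered 1 stood apart from the others. Scores were -23.61, 7.26 and 16.35 for siRetSat 1, 2 and 3, and -19.05, 3.66 and 15.38 for siControl 1, 2 and 3. The arrays were thus in the order of their number in both groups. Without both arrays numbered 1, 4 members were called lower (Fads2, Lpin2, Agpat1 and Mogat1), and the median log2 fold change over the members was -0.09. The share of all genes called in that fit is not given here.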

How the data were processed

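RNA of 6 hepatocyte cultures (3 siRetSat, 3 siControl; 100 ng each) was hybridised to 1-colour Affymetrix mouse gene arrays. The deposited values are log2 intensities of 35556 probe sets, normalized by the authors. For this step the submitters' processing notes list Partek 6.6 and RMA, a method that subtracts background, quantile-normalizes the arrays and combines the probes of a set. Which version of the probe annotation they used is not given in the sources used here. Log2 values ran from 1.46 to 13.7, with array medians of 4.29 to 4.50. The number of arrays limits the precision.

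GEO's platform annotation gave 1 symbol for 21789 probe sets, several for 1621 and none for 12146. Entrez identifiers were matched to RefSeq's gene table (GRCm38.p6) to bring 21698 of these symbols up to date, and 91 kept the platform's symbol. The test used only probe sets with a single symbol. The brightest probe set was used for each of 19938 genes, of which 999 had several, Acaca and Me1 among the members. Promoters came from RefSeq's windows of 300 bases and were matched by symbol.

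A linear model without covariates was fitted to every gene with lmFit and eBayes of limma 3.58.1 (R 4.3.3), as siRetSat minus siControl, and p-values were adjusted by Benjamini-Hochberg across all 19938 genes. The study's cutoffs were an unadjusted p under 0.05 and a change of at least 1.25-fold (0.32 on the log2 scale), which its methods apply after a t-test. Differences between enzymes of 1 family were compared by an exact permutation test. In 20 runs of simulated data drawn from these 19938 genes for the same contrast, limma recovered 36.3% of the genes given a 1.5-fold change and 79.6% of those given a 2-fold change, but only 1.4% of those given a 1.25-fold change. Of its calls, 3.7% were false. The simulated noise was independent between genes and between arrays, whereas the deviations in the real arrays are partly shared. These rates may therefore not hold for the real arrays.

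The members, the lists and the tests were chosen with earlier results of these data known. Values per array are given for members past the adjusted threshold or the study's cutoffs and, whatever their result, for Acly, Acaca, Fasn, Scd1, Elovl6, Gpam, Dgat2 and Srebf1, and among the other pathway genes for those called and for Mlxipl, Thrsp and Mid1ip1. Values per array of Dgat1, Fads1, Fads3, Scd2, Agpat2, Lpin1, Mogat1, Mogat2, Pcyt1a and Chka, and the comparisons within enzyme families, were added after the values were seen. The 18 alternatives changed the test (the methods' t-test, a variance trend, array weights, a block for the replicate number), the genes (without those under the 40th percentile, or averaging all probe sets of a gene), the scaling (quantile normalization again, median centring, subtraction of each array's 5th percentile with a floor of 16) or the arrays (without each in turn, or without both of a number). The labels name Dharmacon as the source of the siRNA and the paper's methods another supplier and another age range of the mice. Python 3.11.15 with pandas 2.3.3, SciPy 1.17.1 and matplotlib 3.10.9 served for tables and plots.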

Additional observations from a re-analysis of the deposited data

How the results depend on the processing

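The number of members past the study's cutoffs stayed between 5 and 7 under all 18 alternatives, and the median log2 fold change over the members stayed under 0, between -0.10 and -0.04. Its difference from the median over all genes was -0.0767 in the comparison as reported and ran in the alternatives from -0.13 (without siControl 1) to -0.0133 (without siRetSat 1, where the medians were -0.035 over the members and -0.0217 over all genes). Retsat passed in each fit that left out a single array. The members called at an adjusted p under 0.05, 2 in the comparison as reported, were 1 by the methods' t-test (Fads2), 4 with a variance trend and 4 without dim genes (Agpat1 and Dgat2 added in both), and 8 with array weights (Agpat1, Dgat1, Dgat2, Elovl6 and Mogat1 added lower and Scd2 higher). With array weights the fit rests mostly on the arrays numbered 2. The omission of arrays gave 0 to 4 members called: 0 without both arrays numbered 2 or both numbered 3, 1 (Fads2) without siRetSat 2 or siControl 2, and 4 without both numbered 1. These last fits hold fewer arrays, and in the other cases the cause was not tested. The other pathway genes called, 3 as reported, were 0 by the methods' t-test, 5 with a variance trend, 13 with array weights, and 0 to 4 when arrays were left out, with 0 without both arrays numbered 2 or both numbered 3 and 1 (Thrsp) without siControl 2. With the replicate number as a block, 6 members were called (Agpat1, Dgat1, Dgat2, Elovl6, Fads2 and Lpin2) and 6 of the other pathway genes. Over all genes, 710 were called as reported, 922 after another quantile normalization (3 members) and 342 with median centring (2 members). For the other alternatives the share of all genes called is not given here. Counts under those alternatives therefore cannot be read as a result about the members or the other pathway genes. Deviations from the group means correlated between arrays of the same number at 0.547, 0.0398 and 0.541 for numbers 1, 2 and 3, and arrays 1 and 3 of each group correlated best with their own number while those numbered 2 did not. The labels do not say whether a number marks a shared day or plate, and the numbers were not taken as pairs because number 2 shows no such correlation. That low correlation cannot decide the question, because the arrays numbered 2 lay between the others along the first principal component. Their scores there were 7.26 in siRetSat and 3.66 in siControl, and scores and array medians followed the number in both groups. Whether the numbers mark pairs was not tested, and the count of members called depends on it.

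Of the 39 members, 30 kept the sign of their log2 fold change under every alternative that held them. Elovl3 and Mogat1 were each in 17 of the 18 alternatives, because the fit without dim genes left them out. The 9 members that changed sign all had a value within 0.08 of 0. After another quantile normalization Fasn was at 0.0203, Gpam at 0.0378 and Lpcat3 at 0.0122. With array weights Acss2 was at -0.085, Gpam at 0.0148, Gpat4 at -0.0066 and Lpcat3 at 0.0159, and with median centring Gpat4 was at -0.0033. When arrays were left out, the values ran from -0.05 to 0.0383 for Fasn, from -0.045 to 0.12 for Acss2, from -0.18 to 0.105 for Elovl3, from -0.15 to 0.015 for Elovl7, from -0.15 to 0.0233 for Gpd1, from -0.08 to 0.06 for Gpam, from -0.0883 to 0.0133 for Gpat3, from -0.0233 to 0.0417 for Gpat4 and from -0.04 to 0.01 for Lpcat3. The cause of these changes of sign was not tested.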

Other observations

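The arrays numbered 1 were low for many members. In both groups at once, array 1 held the lowest value for 16 of the 39 members (41.0%), against 4119 of 19938 genes (20.7%), and the highest value for 3 members (7.69%), against 5520 genes (27.7%). Among the 16 were Acaca, Scd1, Elovl6, Fads1 and Lpin1, while Fads2 and Lpin2 were not among them. Insig1, a brake on SREBP processing that was singled out after its values were seen, shared this shape, with log2 values of 8.06, 8.46 and 8.56 in siRetSat and 8.58, 9.17 and 8.91 in siControl (log2 fold change -0.53, adjusted p = 0.199 by limma).

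Acsl4, which activates arachidonic acid and was also singled out after its values were seen, had log2 values of 9.16, 9.34 and 9.36 in siRetSat and 9.60, 9.81 and 9.61 in siControl. The groups did not overlap, and the log2 fold change was -0.39 (adjusted p = 0.0943 by limma). Hacd2 (-0.40, adjusted p = 0.294) and Hacd3 (-0.28, adjusted p = 0.178), relatives of Hacd1 in the elongation cycle, were not called by limma.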
